A study of Mus musculus with 9 samples.

Results

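The contractile apparatus of skeletal muscle was followed in orofacial tissue of mouse embryos, from which face and palate form, over 3 successive days of gestation. The 41 genes considered encode the actins, myosins, troponins and their partners in the sarcomere, the calcium and acetylcholine receptor machinery that triggers contraction, and muscle energy enzymes. A gene was represented by the probe set whose annotation gave its symbol alone and whose mean over all arrays was highest. This gave 40 genes of the 8251 genes with such a probe set. Ttn, which encodes titin, had no such probe set and was not analysed here. Total RNA of whole orofacial tissue at gestation day 12 (GD12), GD13 and GD14 had been hybridized to 3 one-colour arrays per day. The labels give no treatment, genotype, strain or sex, and nothing in them tells whether a day's 3 arrays held separate litters or pools. Every p-value therefore measures only the spread between these samples, which may be technical.

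A muscle fibre shortens when myosin heads of the thick filament pull on actin of the thin filament. Calcium released inside the fibre binds troponin and moves tropomyosin aside, which opens actin to myosin, and the release itself follows acetylcholine at the nerve contact. Most of these proteins exist as fast, slow, embryonic or cardiac isoforms from separate genes, and developing skeletal muscle is known to use embryonic and cardiac isoforms before adult ones take over. Tongue, jaw and facial muscles differentiate within the embryonic face.

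Values are deposited intensities, which the authors had scaled between arrays, and changes are differences of log2(intensity + 3). Because probe sets differ in response, the level of one gene is not compared with that of another. Array medians ranged from 47.15 to 56.95, and the number of arrays, 3 per day, limits the precision. Arrays numbered 3 stood apart within each day, with the lowest 3'/5' ratio of the actin controls, which reports on RNA and labelling quality. The ratio was 1.42, 1.25 and 1.37 on the arrays numbered 3 of GD12, GD13 and GD14. Replicates 1 and 2 ranged from 1.54 to 1.76 on GD12, 2.09 to 2.23 on GD13 and 2.29 to 2.44 on GD14. Among the muscle genes tested, GD14 replicate 3 had the lowest value of its day for 24 of 33 (39.0% of all tested probe sets), and GD12 replicate 3 for 21 of 33 (35.2%). The part of this array difference in the results below was not tested beyond the fits named there.

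Transcripts of the contractile filaments were higher on GD14 than on GD12. In limma, 12 of 33 tested muscle genes rose, which is 36.4% against 3.24% of all 9326 tested probe sets, and 0 fell (1.06% of all). They were the actins Acta1 and Actc1, the myosin light chains Myl1 and Myl4, the troponins Tnnt1, Tnnt3, Tnni1, Tnnc1 and Tnnc2, the myosin-binding protein Mybph, the Z-disc protein Csrp3 and the enolase Eno3. Calls rested on an adjusted p under 0.05. The genes, their roles and the gene lists further below were chosen with earlier results of these data known. Their excess over all tested probe sets is therefore no independent support for a rise. At an unadjusted p under 0.05, 18 of 33 were higher, against 10.2% of all tested probe sets. The 3 values of GD14 all lay above those of GD12 for 18 of 33 tested genes (12.1% of tested probe sets) and for 21 of 40 genes with a probe set (10% of all probe sets but controls). The remaining 7 genes, Myh1, Myh2, Myh8, Myl2, Myl3, Tnni2 and Pgam2, had a mean log2 at or under that of an intensity of 10.4 and were not tested. Csrp3, Ldb3 and Pygm passed this filter only through their GD14 values. Their presence among the tested genes, and the call of Csrp3, are therefore no independent support for a rise. The median log2 change was 1.06 over the 40 genes, against -0.04 over all 12422 probe sets, and 1.07 over the 33 tested, against -0.02 over those tested. In whole tissue, more muscle cells and more of each RNA per muscle cell cannot be told apart.

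The count of 12 depended on single arrays. Omission of GD12 replicate 1 or of GD12 replicate 2 left 7 calls each, that of GD12 replicate 3 left 5, and that of GD14 replicate 1 or of GD14 replicate 2 left 4 each. It was 7 with the actin control ratio as a covariate, where Actc1, Csrp3, Tnni1, Tnnt1 and Tnnc1 no longer passed, 6 when only GD14 and GD12 were fitted, and 9 without all 3 arrays numbered 3. Acta1, Myl1, Myl4 and Tnnt3 passed in each of the 9 single-array omissions, with a highest adjusted p of 0.00652, 0.0194, 0.0405 and 0.0398 in that order. With the replicate number as a block the count was 14: all 12 passed, and the embryonic myosin Myh3 (adjusted p = 0.0452) and cardiac troponin T Tnnt2 (adjusted p = 0.0296) were added.

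**Figure D1:**
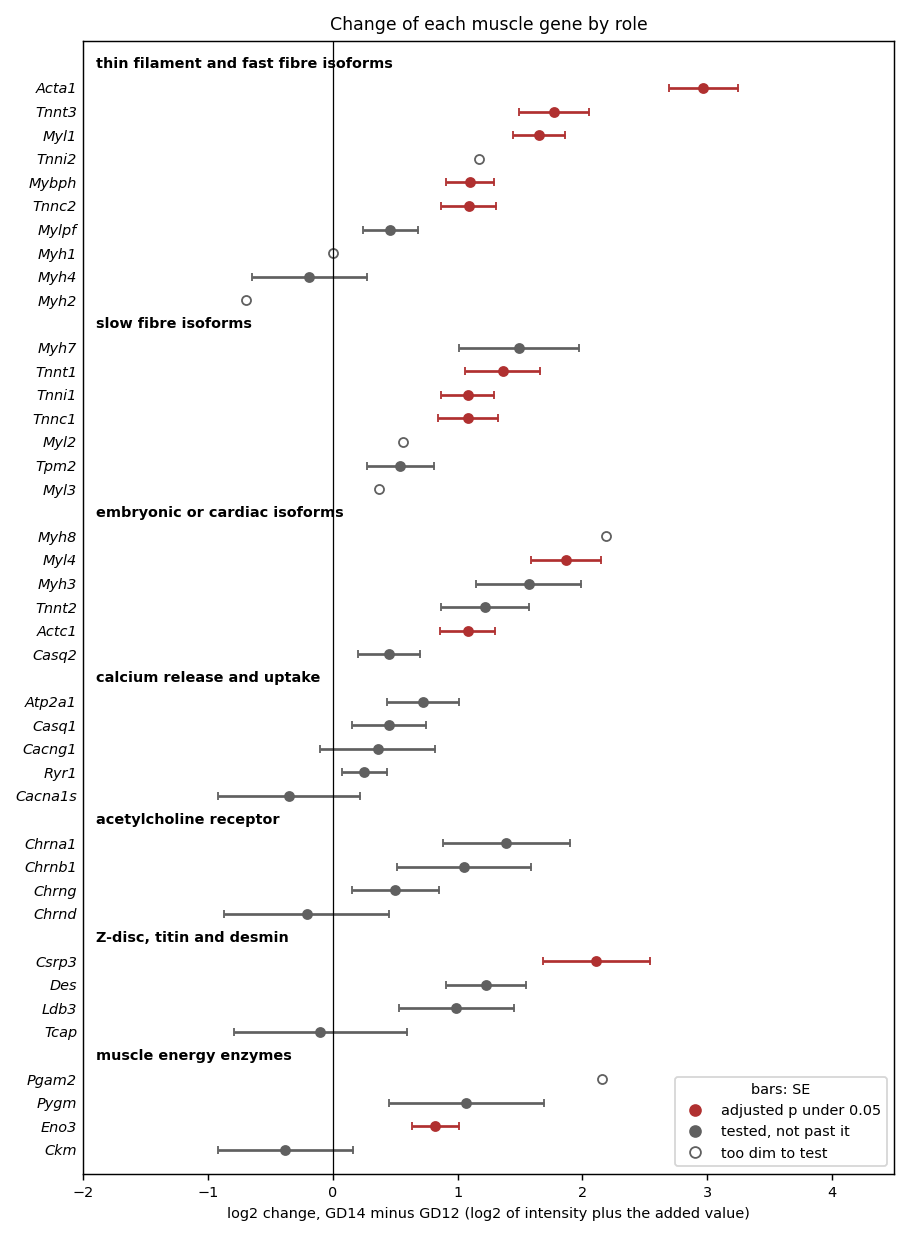
Log2 change between GD14 and GD12 (horizontal axis) of each muscle gene with a probe set, grouped by role, with bars for the standard error (SE). Red points passed an adjusted p under 0.05, grey points were tested and did not pass, and open circles were too dim to test. Acta1 (2.97), Csrp3 (2.11), Myl4 (1.87) and Tnnt3 (1.77) lie far to the right. No calcium or receptor gene is red, which is near the share of all tested probe sets called higher (3.24%).

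Skeletal alpha-actin, Acta1, the thin filament actin of mature skeletal fibres, had the highest log2 change of the 33 tested genes. Its intensity was 70.9, 106.3 and 66.9 at GD12, 128.5, 128.3 and 217.1 at GD13, and 766.0, 714.7 and 487.9 at GD14. The values of the 3 days did not overlap. It averaged 656 ± 148 on GD14 and 81.4 ± 21.7 on GD12 (SD, n = 3 each), a 7.83-fold difference (log2 change 2.97, SE 0.28, adjusted p = 0.000813). Cardiac alpha-actin, Actc1, which embryonic skeletal muscle also uses, had 659.2, 630.9 and 461.2 at GD12, 652.5, 673.9 and 801.0 at GD13, and 1453.5, 1338.0 and 930.1 at GD14. GD14 lay above both earlier days, which overlapped each other. Actc1 averaged 1241 ± 275 on GD14 and 584 ± 107 on GD12 (SD, n = 3 each), a 2.11-fold difference (log2 change 1.08, SE 0.22, adjusted p = 0.0289). Its call ended in 7 of the 9 single-array omissions, all but those of GD13 replicate 3 and GD14 replicate 3 (highest adjusted p = 0.114, without GD14 replicate 1). A second, dimmer Actc1 probe set also rose (log2 change 1.64, adjusted p = 0.0268). The Actc1 probe set used is of a type whose probes may match related sequences, so a share of another actin in its signal cannot be told apart.

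The actin promoters are shown because both hold a CArG box, the motif bound by serum response factor, a known regulator of muscle actin genes. The 250 bases before the annotated start are from RefSeq on GRCm38.p6, at chr8:123894776-123895025 for Acta1 and chr2:114052876-114053125 for Actc1, both on the minus strand. Capitals mark the CArG box, which begins with CCAAAT in both, and matches to CANNTG, the E-box bound by MyoD-type factors, of which CAGCTG is one form.
Acta1: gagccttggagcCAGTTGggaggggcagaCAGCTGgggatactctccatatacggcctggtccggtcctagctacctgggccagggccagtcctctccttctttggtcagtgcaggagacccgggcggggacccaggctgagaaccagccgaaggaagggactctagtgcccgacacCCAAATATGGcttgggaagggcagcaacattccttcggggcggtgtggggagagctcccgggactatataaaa
Actc1: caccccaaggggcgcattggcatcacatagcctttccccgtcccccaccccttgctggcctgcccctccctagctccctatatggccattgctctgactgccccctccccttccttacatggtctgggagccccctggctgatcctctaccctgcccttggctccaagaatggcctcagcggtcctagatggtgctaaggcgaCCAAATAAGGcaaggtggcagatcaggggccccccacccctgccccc
The CArG box starts at position -73 in Acta1 and at -47 in Actc1, counted from the annotated start. Acta1 has 2 CANNTG matches, 1 of them CAGCTG, and Actc1 has 0 in this window. A match is a description of the letters and not a sign that a factor was bound here.

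**Figure D2:**
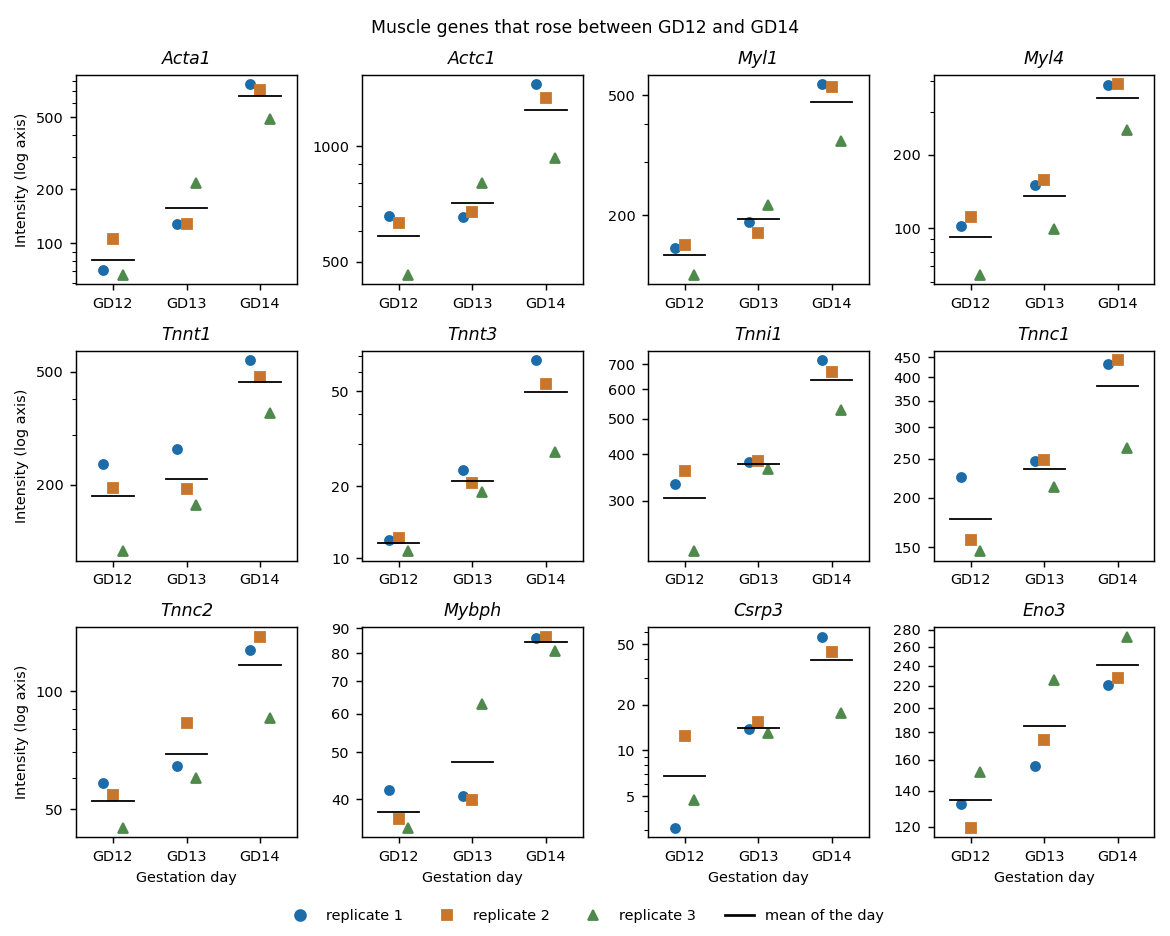
Intensity (log axis) of the 12 muscle genes that rose, on each array of GD12, GD13 and GD14. Markers stand for replicates 1, 2 and 3 and bars for the mean of the day. GD14 lies above GD12 in every panel, and replicate 3 (triangles) is the lowest GD14 point in all panels but that of Eno3.

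Fast fibre isoforms were among the genes that rose. Of 10 genes grouped as thin filament and fast fibre isoforms, 7 were tested and 5 rose (3.24% of all tested probe sets). The median log2 change over the 10 was 1.10. The 5 include Acta1, the actin of mature skeletal fibres, which is not a fast isoform. Myl1, an essential light chain of fast myosin, had 156.3, 159.6 and 127.1 at GD12, 190.9, 175.1 and 216.1 at GD13, and 544.1, 531.0 and 352.2 at GD14. The days did not overlap, and the mean was 476 ± 107 on GD14 and 148 ± 17.9 on GD12 (SD, n = 3 each), a 3.13-fold difference (log2 change 1.65, SE 0.21, adjusted p = 0.00308). Fast troponin T, Tnnt3, which ties troponin to tropomyosin, had 11.9, 12.1 and 10.7 at GD12, 23.4, 20.7 and 19.0 at GD13, and 67.4, 53.5 and 27.9 at GD14. Its days did not overlap either, although GD12 lay just above the filter intensity. It averaged 49.6 ± 20 on GD14 and 11.6 ± 0.757 on GD12 (SD, n = 3 each), a 3.42-fold difference on the log2(intensity + 3) scale (log2 change 1.77, SE 0.28, adjusted p = 0.00871).

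Fast troponin C, Tnnc2, the calcium-binding subunit of fast fibres, had 58.3, 54.3 and 44.9 at GD12, 64.6, 83.1 and 59.9 at GD13, and 127.5, 137.5 and 85.2 at GD14. The days were separate, with GD14 at 117 ± 27.8 and GD12 at 52.5 ± 6.88 (SD, n = 3 each; log2 change 1.09, SE 0.22, adjusted p = 0.0273). The call ended in 6 of the 9 omissions, all but those of GD13 replicate 2, GD13 replicate 3 and GD14 replicate 3 (highest adjusted p = 0.109). Its other probe set was at most 4.6 on each array and was not tested, and with the mean of both the log2 change was 0.41 and the call ended (adjusted p = 0.237). Mybph, a myosin-binding protein of the thick filament, had 41.8, 36.4 and 35.0 at GD12, 40.6, 39.8 and 62.8 at GD13, and 86.0, 86.5 and 80.8 at GD14. The GD14 values were close together and above both earlier days, at 84.4 ± 3.16 on GD14 and 37.7 ± 3.59 on GD12 (SD, n = 3 each; log2 change 1.10, SE 0.19, adjusted p = 0.0141). The call ended without GD14 replicate 1 or without GD14 replicate 2 (highest adjusted p = 0.0622).

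The other fast isoforms did not pass the test or were too dim. Mylpf, the regulatory light chain of fast myosin, had a log2 change of 0.46 (95% interval -0.04 to 0.96, adjusted p = 0.322), and GD14 lay above GD12 without overlap. Myh4, a heavy chain of the fastest adult fibres, had a log2 change of -0.19 (95% interval -1.22 to 0.85, adjusted p = 0.888), on a probe set designed under relaxed rules. Another Myh4 probe set was at most 5.1 on each array and was not tested, so whether the brighter signal is Myh4 was not tested. The adult fast heavy chains Myh1 and Myh2 were under the filter intensity of 10.4 on each of the 9 arrays. Fast troponin I, Tnni2, which holds the thin filament switched off without calcium, was at 11.3, 6.4 and 5.3 on GD14 and between 0.7 and 2.7 on GD12.

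Slow fibre isoforms rose as well. Of 7 genes 5 were tested and 3 rose (3.24% of all tested probe sets), and the median log2 change over the 7 was 1.08. Slow troponin I, Tnni1, the isoform that developing fibres use widely, had 333.2, 361.7 and 219.3 at GD12, 381.4, 384.4 and 365.4 at GD13, and 717.5, 666.5 and 526.3 at GD14. The 3 days were separate. Tnni1 averaged 637 ± 99.0 on GD14 and 305 ± 75.3 on GD12 (SD, n = 3 each; 2.11-fold, log2 change 1.08, SE 0.21, adjusted p = 0.0256). Slow troponin T, Tnnt1, had 236.6, 194.8 and 116.3 at GD12, 267.2, 192.2 and 170.0 at GD13, and 548.7, 480.0 and 357.2 at GD14. GD12 and GD13 overlapped and GD14 lay above both, at 462 ± 97.0 on GD14 and 183 ± 61.1 on GD12 (SD, n = 3 each; 2.57-fold, log2 change 1.36, SE 0.30, adjusted p = 0.0375). A dimmer probe set of Tnnt1 changed by 0.62 on the log2 scale and did not pass (adjusted p = 0.202), and the brighter one is of a type shared between transcripts.

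Tnnc1, the troponin C of slow and cardiac muscle, had 225.8, 156.6 and 146.7 at GD12, 246.8, 249.1 and 212.8 at GD13, and 432.6, 441.5 and 265.5 at GD14. GD14 again lay above both earlier days. Tnnc1 averaged 380 ± 99.1 on GD14 and 176 ± 43.1 on GD12 (SD, n = 3 each; 2.12-fold, log2 change 1.08, SE 0.24, adjusted p = 0.0435). The calls of all 3 slow troponins ended with the actin control ratio as a covariate (adjusted p = 0.0554 for Tnni1, 0.0765 for Tnnt1 and 0.0761 for Tnnc1) and when only GD14 and GD12 were fitted (adjusted p = 0.0845 for Tnni1, 0.0807 for Tnnt1 and 0.114 for Tnnc1). They also ended in some omissions of single arrays. The call of Tnni1 ended without GD12 replicate 1, GD12 replicate 3, GD14 replicate 1 or GD14 replicate 2 (highest adjusted p = 0.105). That of Tnnt1 held without GD12 replicate 1, GD13 replicate 1 or GD14 replicate 3 and ended in the other 6 omissions (highest adjusted p = 0.139), and that of Tnnc1 held without GD12 replicate 1 or GD14 replicate 3 and ended in the other 7 (highest adjusted p = 0.156).

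The slow heavy chain Myh7, which the heart also uses, had 77.2, 58.1 and 57.1 on GD14, all above the 24.9, 40.1 and 8.0 of GD12, and did not pass the test (log2 change 1.49, SE 0.48, adjusted p = 0.141). The Myh7 probe set used is of a type whose probes may match related sequences. Another, too dim to test, had a log2 change of 0.2. Tpm2, the beta-tropomyosin that lies along actin, had a log2 change of 0.54 (95% interval -0.07 to 1.15, adjusted p = 0.351). Myl2 and Myl3, light chains of slow and cardiac myosin, did not exceed 16.1 and 10.5 on any array.

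Embryonic and cardiac isoforms formed the third group, in which 2 of 5 tested genes rose, Actc1 and Myl4 (3.24% of all tested probe sets). The median log2 change over its 6 genes was 1.39. Myl4, the essential light chain of embryonic skeletal and atrial muscle, had 102.1, 110.5 and 64.2 at GD12, 149.7, 157.2 and 98.8 at GD13, and 387.6, 390.0 and 251.8 at GD14. GD14 lay far above both earlier days. It averaged 343 ± 79.1 on GD14 and 92.3 ± 24.7 on GD12 (SD, n = 3 each), a 3.65-fold difference (log2 change 1.87, SE 0.28, adjusted p = 0.00772). A second Myl4 probe set did not show it, at 138 ± 27.6 on GD14 and 131 ± 14.3 on GD12 (SD, n = 3 each; log2 change 0.06, adjusted p = 0.921), so the rise of Myl4 rests on 1 probe set. With the mean of both the log2 change was 0.96 (adjusted p = 0.0222).

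Embryonic myosin heavy chain, Myh3, had 29.2, 39.7 and 17.5 at GD12, 38.3, 36.5 and 39.8 at GD13, and 143.2, 109.2 and 41.9 at GD14. GD14 lay above GD12 on every array but was widely spread, and the change did not pass (log2 change 1.57, SE 0.42, adjusted p = 0.0807). It passed with the replicate block (adjusted p = 0.0452), with array weights, with trended and robust variances, and without GD14 replicate 3 or all arrays numbered 3. Tnnt2, the troponin T of heart and embryonic skeletal muscle, had 85.9, 58.8 and 34.5 on GD14 and 20.2, 32.1 and 17.2 on GD12 (log2 change 1.22, SE 0.35, adjusted p = 0.101). It passed with the block (adjusted p = 0.0296), with array weights and without GD14 replicate 3. Casq2, the calcium-binding protein of cardiac and slow muscle stores, had a log2 change of 0.45 (95% interval -0.11 to 1.01, adjusted p = 0.401). Perinatal myosin heavy chain, Myh8, was too dim to test, at 31.3, 23.9 and 6.3 on GD14 and between 0.9 and 2.1 on GD12, without overlap. With no filter on dim probe sets Myh8, Tnni2 and Pgam2 passed the test, while Eno3, Tnnc1 and Tnnt1 did not.

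Whether isoforms of one protein changed unequally was asked from the difference of their log2 values within each array. Of 13 pairs, 9 had both genes bright enough to test, and an exact permutation test over the 3 days was adjusted over those 9. The difference Acta1 minus Actc1 was -3.16, -2.54 and -2.73 at GD12, -2.32, -2.37 and -1.87 at GD13, and -0.92, -0.90 and -0.93 at GD14. It was separate on each day and 1.89 higher on GD14 than on GD12, so the Acta1 probe set rose more than the Actc1 probe set used. The latter may hold signal of another actin, so unequal changes of the RNAs cannot be told from this difference alone. The exact p was 0.00357, the smallest that the assignments of 9 arrays to 3 days can give (adjusted p = 0.0321). The adjusted p was 0.0643 without GD12 replicate 1 and 0.0643 without GD13 replicate 3. With the replicate block it was 0.25, where the smallest exact p is 0.0278 before adjustment. The other 8 pairs had adjusted p-values from 0.49 to 0.832. Their changes between GD14 and GD12 ranged from -1.68 for Myh4 minus Myh7, the fast against the slow heavy chain, to 0.56 for Tnnt3 minus Tnnt2, the fast against the cardiac troponin T. Both exceeded the pooled SD within days, which was 1.07 and 0.28 in that order, and GD14 lay above GD12 without overlap for Tnnt3 minus Tnnt2. Tnnt3 minus Tnnt1, the fast against the slow troponin T, changed by 0.41 (pooled SD 0.33) and Chrng minus Chrna1, of the receptor subunits, by -0.89 (pooled SD 1.07). Myl1 minus Myl4, the fast against the embryonic light chain, changed by -0.22 (pooled SD 0.32), with GD14 below GD12 without overlap. Its adjusted p was 0.0643 without GD13 replicate 3. Tnnc2 minus Tnnc1, the fast against the slow troponin C, changed by 0.01 (pooled SD 0.16), Tnnt1 minus Tnnt2 by 0.15 (pooled SD 0.39) and Casq1 minus Casq2 by 0.00 (pooled SD 0.52). With these 3 arrays per day a p that misses the threshold does not show that the isoforms moved alike.

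Several pair differences depended on the choice of probe set. With the mean of all probe sets of a gene, Acta1 minus Actc1 changed by 1.61 (adjusted p = 0.0321). Tnnt3 minus Tnnt1 (0.78, adjusted p = 0.0429) and Tnnc2 minus Tnnc1 (-0.68, adjusted p = 0.0321) also passed, the second with the dim Tnnc2 probe set in the mean. In the same setting Myl1 minus Myl4 turned to 0.69 (adjusted p = 0.0964) and Tnnt1 minus Tnnt2 to -0.23 (adjusted p = 0.686). Myh4 minus Myh7, where both genes have a dim second probe set, was -0.9 in that setting (adjusted p = 0.409).

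**Figure D3:**
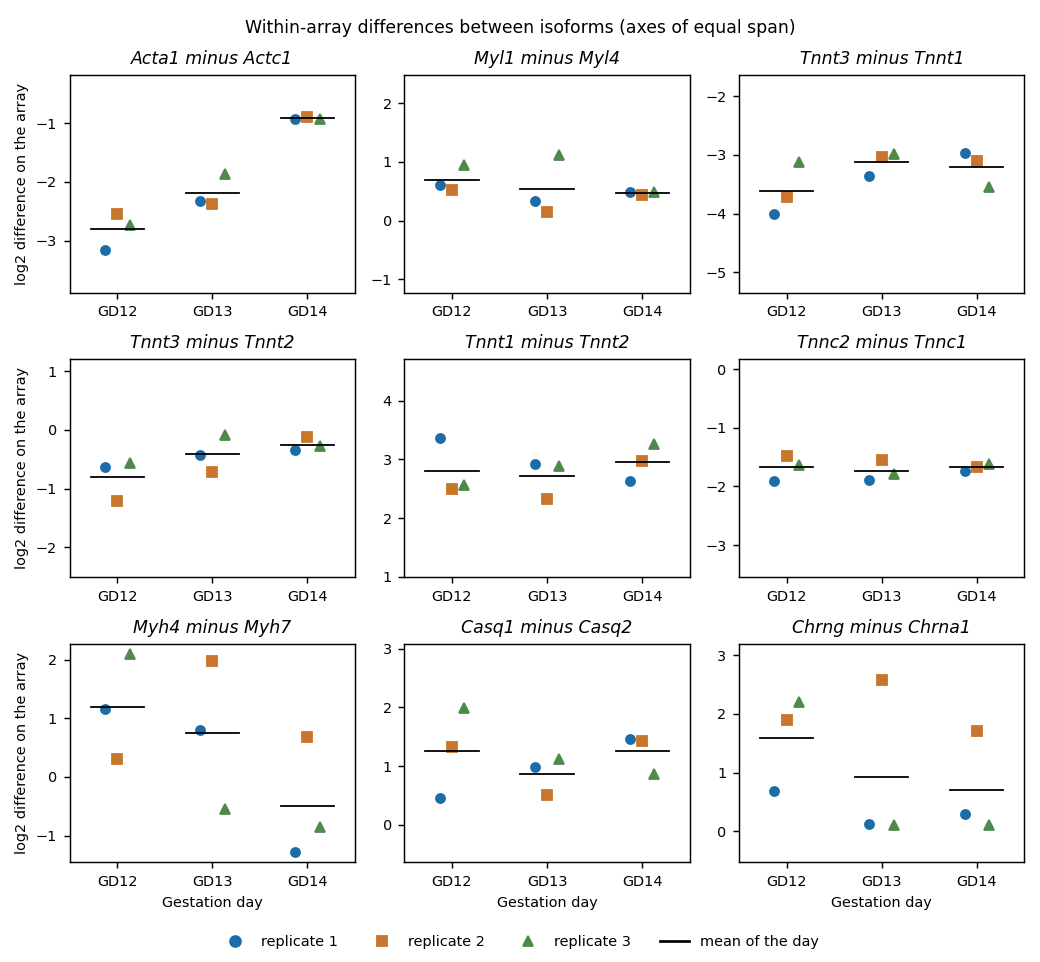
Difference between the log2 values of isoforms on each array (vertical axes of equal span), with markers for replicates 1, 2 and 3 and bars for the mean of the day. In Acta1 minus Actc1 the 3 GD14 arrays lie between -0.93 and -0.90, above both earlier days. The other 8 panels did not pass the exact test, and in Myh4 minus Myh7 the GD13 arrays spread from -0.54 to 1.97.

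Of the 5 genes of calcium release and uptake 0 passed the test, where 3.24% of all tested probe sets were called higher. With 5 genes, a count of 0 is near that share and does not set them apart. At an unadjusted p under 0.05, 1 of the 5, Atp2a1, was higher (10.2% of all). The median log2 change of the 5 was 0.36, against -0.02 over all tested probe sets. Atp2a1, the pump that returns calcium to the stores of fast fibres, had 75.6, 68.5 and 41.2 at GD12, 75.0, 92.7 and 70.2 at GD13, and 108.9, 133.1 and 70.0 at GD14. GD14 replicate 3 lay within the GD12 range, and the log2 change of 0.72 did not pass (95% interval 0.07 to 1.38, adjusted p = 0.238). The log2 change was 1.0 on a dimmer Atp2a1 probe set (adjusted p = 0.162), with GD14 above GD12 without overlap. Casq1, the calcium buffer of fast fibre stores, had a log2 change of 0.45 (adjusted p = 0.504). Ryr1, the release channel of the stores, had 0.25, with a 95% interval from -0.17 to 0.66 (adjusted p = 0.559). Cacna1s and Cacng1, subunits of the voltage sensor that opens it, had -0.35 (adjusted p = 0.82) and 0.36 (adjusted p = 0.773), with GD12 arrays under the filter intensity for both.

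Of the 4 acetylcholine receptor subunits 0 passed the test, which is near the 3.24% of all tested probe sets called higher. At an unadjusted p under 0.05, 1 of the 4, Chrna1, was higher (10.2% of all). The median log2 change of the 4 was 0.77, against -0.02 over all tested probe sets. The gamma subunit Chrng, which belongs to the fetal form of the receptor, was at 22.9, 50.7 and 27.0 at GD12, 28.1, 56.2 and 31.5 at GD13, and 39.0, 64.6 and 38.8 at GD14. The days overlapped, replicate 2 was the highest on each, and within each replicate number the value was higher on each later day. The log2 change of 0.50 did not pass without the block (95% interval -0.29 to 1.30, adjusted p = 0.529) or with it (adjusted p = 0.0656). Another Chrng probe set had -0.33 (adjusted p = 0.814). The alpha subunit Chrna1, which binds acetylcholine, had 31.4, 17.6 and 36.1 on GD14, all above the 13.2, 11.5 and 3.5 of GD12 (log2 change 1.39, SE 0.51, adjusted p = 0.194). The beta subunit Chrnb1 had a log2 change of 1.05 (95% interval -0.18 to 2.27, adjusted p = 0.365). The delta subunit Chrnd was highest on GD13, at 47.3, 32.1 and 26.8, against 3.5, 6.8 and 31.3 on GD14 and 17.3, 22.5 and 3.5 on GD12, and none of its comparisons passed (adjusted p = 0.917 for GD14 against GD12).

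Receptor subunit promoters are shown because E-boxes near their start are known to bind myogenic factors. The 250 bases before the start are from RefSeq on GRCm38.p6, at chr2:73580339-73580588 on the minus strand for Chrna1 and chr1:87205561-87205810 on the plus strand for Chrng. Capitals mark CANNTG matches, and each of the pair has 3, of which 2 are CAGCTG. The Chrnb1 promoter, not printed, has 3 CANNTG matches and 0 of the CAGCTG form.
Chrna1: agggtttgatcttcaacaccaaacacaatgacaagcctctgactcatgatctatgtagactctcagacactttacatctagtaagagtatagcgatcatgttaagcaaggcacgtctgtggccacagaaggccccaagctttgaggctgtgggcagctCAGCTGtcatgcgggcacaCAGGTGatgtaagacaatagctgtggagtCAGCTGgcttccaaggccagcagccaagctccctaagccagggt
Chrng: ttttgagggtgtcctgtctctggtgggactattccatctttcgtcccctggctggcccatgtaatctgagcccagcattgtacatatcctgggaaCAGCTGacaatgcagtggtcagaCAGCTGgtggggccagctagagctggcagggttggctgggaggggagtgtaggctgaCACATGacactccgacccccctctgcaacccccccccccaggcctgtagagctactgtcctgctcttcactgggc
The CAGCTG matches start at positions -92 and -44 in Chrna1 and at -155 and -132 in Chrng.

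Promoters of the muscle genes as a whole were searched on both strands for 4 motifs, and 35 of the 41 genes matched a RefSeq promoter, with 41 promoters in all. CANNTG was found in 82.9% of them, against 66.2% of all 32851 promoters of the same length. Its CAGCTG form was found in 46.3%, against 13.0% of all. The MEF2 site was found in 12.2%, against 2.92% of all, and the CArG box in 14.6%, against 1.47% of all. The motifs did not single out the genes that rose. CAGCTG was found in 38.5% of their 13 promoters and in 50.0% of the 28 promoters of the other muscle genes. The MEF2 site was found in 0.0% and 17.9%, the CArG box in 15.4% and 14.3%, and CANNTG in 84.6% and 82.1%, in that order. The 5 promoters with a MEF2 site were those of Casq2, Myh1, Myh4, Myh8 and Pgam2. A CArG box was also found in promoters of Ldb3, Myh4 and Myl3. Several muscle genes are neighbours on the chromosome. On chromosome 11 the heavy chains Myh3, Myh2, Myh1, Myh4 and Myh8 follow each other with 0 protein-coding genes between them, and on chromosome 1 the receptor genes Chrnd and Chrng do so. On chromosome 1 Tnni1 and Tnnt2, and on chromosome 7 Tnni2 and Tnnt3, have 1 protein-coding gene between them.

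Genes of the Z-disc and its links differed among themselves, and 1 of 4 tested rose (3.24% of all tested probe sets). Csrp3, the muscle LIM protein at the Z-disc, had 3.1, 12.5 and 4.7 at GD12, 13.8, 15.4 and 13.1 at GD13, and 56.2, 44.5 and 17.7 at GD14. The days were separate, and on GD12 2 of the 3 arrays were under the filter intensity, so no fold is given (log2 change 2.11, SE 0.43, adjusted p = 0.0289). Csrp3 passed the filter only through its GD14 values. The call held without GD12 replicate 2, GD13 replicate 2, GD13 replicate 3 or GD14 replicate 3 and ended in the other 5 omissions (highest adjusted p = 0.107). Des, which encodes the intermediate filament desmin that links neighbouring Z-discs, had 50.9, 60.7 and 36.5 on GD14, all above the 16.3, 21.1 and 19.5 of GD12, and missed the threshold (log2 change 1.23, SE 0.32, adjusted p = 0.0661), which it passed with quantile normalization, array weights, without GD13 replicate 1 or when only GD14 and GD12 were fitted. Ldb3, another Z-disc protein, had 25.2, 43.6 and 9.0 on GD14 and between 6.4 and 11.9 on GD12 (log2 change 0.99, adjusted p = 0.308). Tcap, the cap of titin at the Z-disc, ranged from 7.9 to 41.9 on GD14 and from 5.5 to 49.7 on GD12 (log2 change -0.10, adjusted p = 0.966).

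Among the muscle energy enzymes 1 of 3 tested rose (3.24% of all tested probe sets). Eno3, the muscle enolase of glycolysis, had 132.5, 119.5 and 151.8 at GD12, 155.9, 174.2 and 225.8 at GD13, and 220.9, 227.6 and 271.7 at GD14. GD14 lay above GD12, GD13 overlapped GD14, and replicate 3 was the highest on every day, unlike in the other 11 genes that rose. The mean was 240 ± 27.6 on GD14 and 135 ± 16.2 on GD12 (SD, n = 3 each; 1.77-fold, log2 change 0.82, SE 0.19, adjusted p = 0.0437). The call held only without GD13 replicate 3 and ended in the other 8 omissions (highest adjusted p = 0.131, without GD12 replicate 2). Ckm, the creatine kinase of mature muscle, had a log2 change of -0.38 (95% interval -1.61 to 0.85, adjusted p = 0.796). Pygm, the muscle glycogen phosphorylase, had 1.07 (adjusted p = 0.432). Pgam2, the muscle phosphoglycerate mutase, was too dim to test, at 40.2, 8.9 and 26.7 on GD14 and between 1.6 and 3.5 on GD12, without overlap.

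The rise was then divided into its daily steps, and neither step alone carried a call. Between GD13 and GD12 0 muscle genes were called (0.568% of all tested probe sets higher and 0.0751% lower). At an unadjusted p under 0.05, Acta1, Tnnt3 and Eno3 were higher, 3 of 33 against 6.43% of all tested probe sets. GD13 lay above GD12 without overlap for 8 of 33 (10.1% of all). Between GD14 and GD13 0 were called (0.0322% of all higher and 0.0107% lower). At an unadjusted p under 0.05, 15 of 33 were higher (4.46% of all), and GD14 lay above GD13 without overlap for 14 of 33 (7.14% of all). The 15 include Csrp3, Ldb3 and Pygm, which passed the filter only through GD14. With the replicate block Myl4 passed for GD14 against GD13 (log2 change 1.32, adjusted p = 0.0389, against 0.222 without it).

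The median log2 change of the 33 tested genes was 0.70 between GD14 and GD13 and 0.32 between GD13 and GD12, against -0.03 and 0.03 over all tested probe sets. For Acta1 the second step was 2.05 (adjusted p = 0.0806) and the first 0.92 (adjusted p = 0.255). For Myl1 they were 1.26 (adjusted p = 0.102) and 0.39 (adjusted p = 0.545). The second step was larger than the first in 23 of the 33 tested genes, against 44.6% of all tested probe sets. They include 11 of the 12 genes that rose, all but Eno3, which were chosen on the sum of both steps. Among the 23 are Csrp3, Ldb3 and Pygm, which passed the filter only through their GD14 values. These genes also enter the median of 0.70 and are no support for a larger second step. The steps share the GD13 arrays, and the test of their difference called 0 muscle genes and 0.0% of all probe sets in either direction. At an unadjusted p under 0.05 that difference was positive for 3 of 33 muscle genes, Acta1, Myl1 and Ldb3 (2.42% of all), and negative for Chrnd. Ldb3 passed the filter only through its GD14 values, so it is no support for a larger second step.

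**Figure D4:**
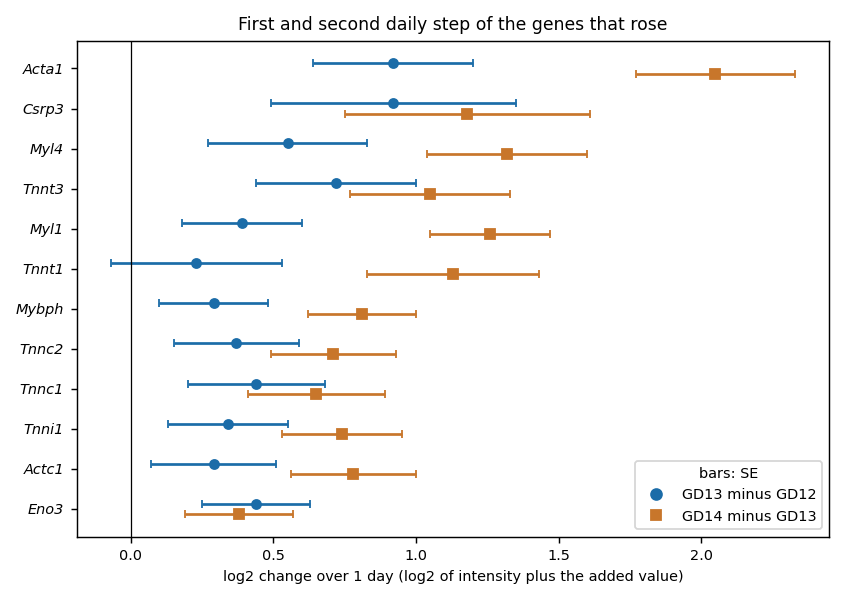
Log2 change over 1 day (horizontal axis) of the 12 genes that rose, for the first step (GD13 minus GD12, circles) and the second step (GD14 minus GD13, squares), with bars for the SE. The second step lies to the right of the first in 11 genes, and for Eno3 it is 0.38 against 0.44.

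Other genes of muscle were set beside these. Of 68 further genes of the sarcomere, membrane complex, calcium handling and muscle metabolism, 40 had a probe set and 31 were tested. Of the 31, 4 rose (12.9%) and 0 fell, against 3.24% and 1.06% of all tested probe sets. The median log2 change of the 31 was 0.40, against -0.02 over all tested probe sets. The 4 were Cav3, the caveolin of the muscle membrane (log2 change 2.20, adjusted p = 0.0126), Ak1, an adenylate kinase (1.77, adjusted p = 0.0106), Cox6a2, a muscle subunit of cytochrome oxidase (2.15, adjusted p = 0.0256), and Fabp3, a fatty acid carrier of heart and muscle (1.56, adjusted p = 0.0277). Of 10 tested myogenic regulators 1 rose, Mef2c, a transcription factor of muscle differentiation. With 10 genes, 1 call says little about the list. Mef2c had 88.3, 92.1 and 44.5 on GD14 and 23.4, 32.4 and 29.4 on GD12 (log2 change 1.26, adjusted p = 0.0337). The determination factor Myod1 had a log2 change of 0.43 (adjusted p = 0.324), and myogenin, Myog, which drives fibre differentiation, 0.54 (adjusted p = 0.467). The regulators did not all go up, and 7 of the 10 tested had a positive change. Six4 had -1.1 (adjusted p = 0.0624), Pax3 -0.25 (adjusted p = 0.665) and Myf6 -0.25 (adjusted p = 0.892).

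Marker lists of other cell types were measured on the same arrays. Over all tested probe sets, 3.24% were called higher and 1.06% lower, so a single call, or none, says little about a short list. Of 8 cardiac markers 4 were tested and 0 passed. Myh6, Nkx2-5 and Ryr2 were at or under the filter intensity on all 9 arrays, and Myl7 on most. The natriuretic peptides Nppa (12.5 to 94.8 over the 9 arrays) and Nppb (11.7 to 29.5) lay above it on all arrays, and Tnni3 (4.2 to 36.1) and Sln (9.0 to 41.4) on most. The summed intensity of the 8 was 127.9, 218.5 and 125.2 on GD14 and 156.9, 186.6 and 114.0 on GD12. The 40 muscle genes summed to 2745.7, 2793.1 and 2116.0 at GD12, 3131.9, 3175.2 and 3311.9 at GD13, and 6756.2, 6460.9 and 4592.7 at GD14. Of 7 smooth muscle markers 5 were tested and 2 rose, the smooth muscle actin Acta2 (log2 change 1.68, adjusted p = 0.00482) and the actin-binding protein Tagln (1.18, adjusted p = 0.00805). Their list summed to between 760.0 and 1015.0 on GD14 and between 396.7 and 449.6 on GD12. Some of these genes are also used by embryonic skeletal muscle, and their part in the results above was not tested. Of 9 facial mesenchyme markers, all tested, Msx1, a transcription factor of growing facial mesenchyme, fell (log2 change -0.96, adjusted p = 0.0142). In this list 2 genes had a positive change, Dlx5 (0.62, adjusted p = 0.0585) and Dlx6 (0.41, adjusted p = 0.764). The list summed to 2562.7 to 2606.1 on GD14 and 3207.6 to 3854.1 on GD12, and bright genes such as Msx1 and Twist1 weigh most in that sum. Of 5 tested markers of oral epithelium, the keratin Krt8 rose (log2 change 1.21, adjusted p = 0.00618). Krt18 (0.77, adjusted p = 0.124) and Epcam (0.71, adjusted p = 0.053) did not pass, and Cdh1 (-0.02) and Trp63 (-0.21) were not higher. The list summed to 704.2 to 754.8 on GD14 and 497.0 to 537.8 on GD12, with mean Krt8 at 298.5 and 127.4 in that order. Of 6 tested neuron markers 0 passed, and their list summed to 1273.0 to 1649.9 on GD14 and 1585.1 to 2816.5 on GD12.

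**Figure D5:**
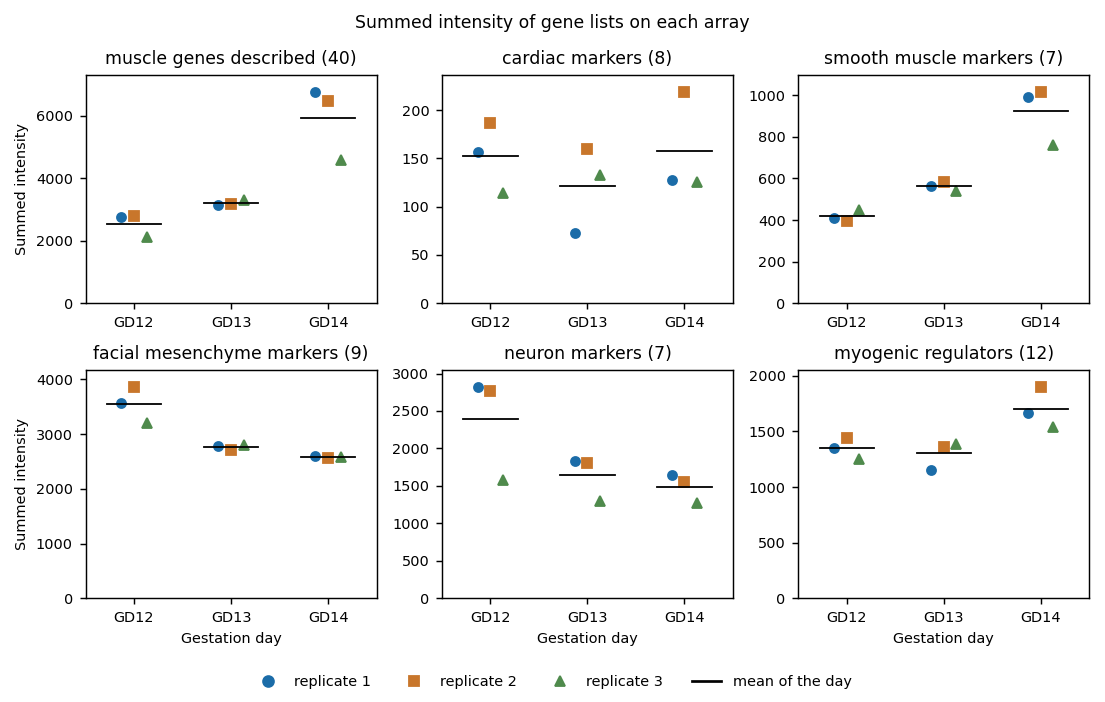
Summed intensity (vertical axes from 0) of gene lists on each array of GD12, GD13 and GD14, with the number of genes in parentheses, markers for replicates 1, 2 and 3 and bars for the mean of the day. The muscle genes reach 4592.7 to 6756.2 on GD14, above every earlier array, while the cardiac markers overlap between days.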

How the data were processed

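Total RNA of 9 samples of mouse orofacial tissue was measured on one-colour oligonucleotide arrays. The deposited values are linear intensities, 1 per probe set and array, scaled by the authors to a trimmed mean (2% off each end) of 150.1 on each array. The software and array preparation are not given in the sources used here. Groups follow the sample descriptions. Symbols came from the platform annotation.

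The 12488 probe sets were transformed to log2(intensity + 3), where 3 is the 10th percentile of all values. The 66 controls and every probe set with a mean log2 at or under the 25th percentile were excluded. The remaining 9326 were fitted in limma 3.58.1 (R 4.3.3) with 3 day means and moderated variances (2.85 prior and 6 residual degrees of freedom), with Benjamini-Hochberg adjustment over all of them. No fold is given where GD12 arrays lay under the filter intensity of 10.4. Isoform pairs were compared by exact two-sided permutation tests, enumerated in Python 3.11.15 with numpy 2.4.6, and adjusted over the 9 pairs.

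Values on all arrays are given for genes that passed in a comparison and otherwise for the one with the highest mean signal in its role, a choice for display only. Outside this rule, Myh3 and Chrnd are also shown on all arrays. Other members are given by range, change and count, some with their values on single days. The members, roles and gene lists were chosen with earlier results of these data known. Arrays of the same number had residual correlations of 0.19 to 0.42 over days, against -0.29 to -0.02 for different numbers, so the numbers were treated as pairs in an alternative fit with a block. The fits were tested on simulated data. Other alternatives were quantile normalization, median scaling, other added values and filters, trended variances, array weights, omission of arrays, the actin control ratio as a covariate, only the days compared, and the mean of a gene's probe sets.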

Additional observations from a re-analysis of the deposited data

How the results depend on the processing

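The number of muscle genes higher on GD14 than on GD12 was 12. It ranged from 4 to 13 when single arrays were left out, and was 7 with the actin control ratio as a covariate and 6 when only those 2 days were fitted, of which 5 were among the 12 and Des was added. It was 14 with the replicate block. In the other alternatives the count stayed within 1.5 times of 12, and 0 genes fell in any of them. For GD14 against GD13 the count of 0 became 1 with median scaling (Acta1), 1 with an added value of 11 (Acta1), 2 with a filter at the median, 2 with trended and robust variances, 2 with array weights (Acta1 and Myl1 in these 3), and 1 with the replicate block (Myl4). Counts for GD13 against GD12 and for the difference of the steps stayed at 0. For the isoform pairs the count of 1 became 0 with the replicate block (adjusted p = 0.25), 0 without all arrays numbered 3 (adjusted p = 0.3, where the smallest exact p is 0.0667 before adjustment), and 3 with the mean of a gene's probe sets. When single arrays were left out it was 0 or 1. The causes were not tested.

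Of 305 alternative values of the 12 genes that rose, Atp2a1 and Chrng, 237 stayed on the same side of the threshold in the same direction, 68 no longer passed, and 0 reversed. All 68 belong to the 12 genes that rose. Atp2a1 (22 of the values) and Chrng (21) had no call to lose, so they add only to the 237. The replicate block changed, among these muscle genes, no other call between days than those of Myh3, Tnnt2 and Myl4 and of the isoform pair Acta1 minus Actc1. Arrays carry no read depth. Myh1 and Myh2 lay under the filter intensity on all 9 arrays, Myl2, Myl3 and Tnni2 on 8, and Myh8 and Pgam2 on 7, so their changes rest on dim signal.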
